A study of Mus musculus with 16 samples.

Results

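The 10 genes described here encode proteins of the bone matrix (Col1a1, Col1a2, Sparc, Mgp and Ibsp), a transcription factor of the bone-forming osteoblast (Runx2), enzymes of the bone-resorbing osteoclast (Ctsk and Acp5) and the receptors that govern osteoclast formation (Tnfrsf11a and Tnfrsf11b). They were chosen by symbol, through the Ensembl identifiers of the deposited count table. All 10 were found among its 21804 genes. RNA was sequenced from cortex and thalamus of C57BL/6 mice aged 4 months whose Pdgfb gene held the retention allele in 1 copy (ret/wt) or in both (ret/ret). This allele removes the stretch of the growth factor PDGF-B that keeps it near the vessel wall. Each of 8 animals, 4 per genotype, gave 1 library per region, so ret/wt cortex, ret/ret cortex, ret/wt thalamus and ret/ret thalamus each had n = 4. The ret/wt control animals also carried 1 retention allele, and no wild-type group was analysed here. Per the labels, the ret/ret thalamus tissue consisted of vessel calcifications picked by their autofluorescence under a stereomicroscope, while a matching region was cut from ret/wt animals. Genotype and manner of dissection therefore cannot be told apart in the thalamus.

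In bone, osteoblasts lay down type I collagen, whose triple helix joins chains encoded by Col1a1 and Col1a2, and the collagen is then mineralised. Osteoclasts form from cells of the macrophage lineage when RANK ligand (Tnfsf11) binds its receptor RANK (Tnfrsf11a), and osteoprotegerin (Tnfrsf11b) is a soluble decoy that holds the ligand back. In brain, several of these genes also have sources without a link to bone: meningeal and perivascular fibroblasts make type I collagen, astrocytes make Sparc, and microglia express Tnfrsf11a. Vessel calcification in Pdgfb ret/ret mice is the reason for setting their thalamus against that of ret/wt animals.

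Total counts were 13415391 to 29135064 per library. A count of 3, taken as the floor under which a level was read as background, stood for 0.103 to 0.224 CPM (counts scaled by library total, with trimmed-mean factors over all 16 libraries), and this floor covers counting error only. Some libraries stood apart. The Y-linked gene Ddx3y reached 55.2 to 68.7 CPM in the 4 libraries of ret/wt animal 3 and ret/ret animal 2 and at most 0.219 CPM in the other animals, and the labels do not give sex. In 2 cortex libraries, ret/wt replicate 3 and ret/ret replicate 2, the 10 cerebellum marker genes summed to 1912 and 4571 CPM, beside 30.7 to 100 CPM in the other cortex libraries. The summed level of 10 choroid plexus markers was 1169 CPM in ret/wt cortex replicate 4, against at most 73.7 CPM in the other cortex libraries. Cortex neuron markers summed to 899 to 2946 CPM in cortex and 188 to 495 CPM in thalamus, so all 16 libraries matched their labelled region by that list. The thalamus neuron list did not part them fully, since ret/ret cortex replicate 2 (769 CPM) lay within the thalamus range of 572 to 3467 CPM. Of that sum, Rora gave 372 CPM and Calb2, which is also on the cerebellum list, 268 CPM. Tcf7l2, Lef1, Slc17a6, Plekhg1 and Tnnt1 were lower in every ret/ret cortex library than in every thalamus library, and the other genes of the list overlapped. Within thalamus the thalamus neuron list summed to 3154 CPM in ret/wt replicate 3 and 3467 CPM in ret/ret replicate 2, against at most 1177 CPM in the others. These libraries and the 2 cortex libraries with cerebellum markers come from the 2 animals with Y-linked reads. In those animals Y-linked reads and these marker sums cannot be told apart. The mitochondrial share of the counts was 3.22% to 8.43% in cortex, 5.87% to 12.1% in thalamus of ret/ret animals and 4.24% to 8.80% in that of ret/wt animals. Results that rest on these libraries are given with and without them.

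The 250 bases before the annotated RNA start are printed for genes that stand for the osteoclast enzymes and for Spp1 (osteopontin), a matrix protein outside the 10 genes whose level was higher in thalamus than in cortex in all 8 animals. RefSeq windows on GRCm38.p6 were matched for 7 of the 10 genes. Ctsk and Acp5 are shown because their windows overlap no annotated exon of the gene, and Acp5 has 3 annotated starts, of which the outermost is shown. Each window was searched on both strands for the core motif of RUNX factors (TGTGGT, which reads ACCACA on the other strand) and for the TATA box letters TATAAA, which read TTTATA on the other strand, and matches stand in capitals. Ctsk, chr3:95498960-95499209, plus strand, and Acp5, chr9:22135747-22135996, minus strand, held no match. Spp1, chr5:104434861-104435110, plus strand, held 1 RUNX core match on the other strand, starting 128 bases before the RNA start, and 1 TATAAA match 211 bases before it, and they do not overlap. The window of a further annotated Spp1 start, chr5:104435942-104436191, is not shown and held no match. Of 32851 such windows in the table, 14% held the RUNX core and 12.4% held the TATA letters, so a match is common and is a description of the letters alone.
Ctsk: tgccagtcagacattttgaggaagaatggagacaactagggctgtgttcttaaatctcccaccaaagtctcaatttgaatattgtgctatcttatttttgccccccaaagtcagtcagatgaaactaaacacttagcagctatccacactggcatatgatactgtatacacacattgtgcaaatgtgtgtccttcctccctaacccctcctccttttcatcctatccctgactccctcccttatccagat
Acp5: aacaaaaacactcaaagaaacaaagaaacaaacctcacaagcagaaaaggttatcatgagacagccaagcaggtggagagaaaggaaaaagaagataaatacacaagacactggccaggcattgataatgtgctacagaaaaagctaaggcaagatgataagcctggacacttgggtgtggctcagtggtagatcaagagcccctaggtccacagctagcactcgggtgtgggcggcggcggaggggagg
Spp1: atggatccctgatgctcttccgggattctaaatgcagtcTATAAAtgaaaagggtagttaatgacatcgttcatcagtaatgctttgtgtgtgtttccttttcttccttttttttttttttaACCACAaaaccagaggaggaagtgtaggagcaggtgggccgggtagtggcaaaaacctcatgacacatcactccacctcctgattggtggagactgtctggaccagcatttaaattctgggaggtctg

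Sparc encodes osteonectin, a collagen-binding matrix protein (ENSMUSG00000018593, chr11:55394500-55423183, minus strand on GRCm38). It was the most abundant of the 10 per length of transcript in every group, from 116 ± 58.0 CPM per kilobase in ret/wt cortex to 952 ± 433 in ret/ret thalamus (SD, n = 4). In single libraries, replicates 1 to 4, its level was 159, 174, 448 and 286 CPM in ret/wt cortex and 611, 999, 116 and 182 CPM in ret/ret cortex. It was 1442, 1598, 1389 and 1943 CPM in ret/wt thalamus and 3410, 1229, 2571 and 1546 CPM in ret/ret thalamus. Every thalamus library was above every cortex library, and the genotypes overlapped in both regions. The highest cortex library, ret/ret replicate 2, was also the one with the largest sum of cerebellum markers.

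Type I collagen was low and uneven. Col1a1 (ENSMUSG00000001506, chr11:94936224-94953042, plus strand) stood at 14, 7.89, 4.70 and 5.38 CPM in ret/wt cortex and at 20.3, 12.5, 2.67 and 3.52 CPM in ret/ret cortex. In thalamus it stood at 22.3, 14.1, 4.25 and 15.5 CPM in ret/wt and at 59.2, 3.80, 3.20 and 9.16 CPM in ret/ret. The ret/ret thalamus mean thus came mainly from replicate 1, and the other 3 libraries of that group were below 3 of the 4 ret/wt thalamus libraries.

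Col1a2 (ENSMUSG00000029661, chr6:4504814-4541544, plus strand) did not keep the same order of libraries in cortex. Its levels were 25.5, 14.9, 25.9 and 11.7 CPM in ret/wt cortex and 19.1, 32.5, 4.09 and 15 CPM in ret/ret cortex. Its highest ret/wt cortex library, replicate 3, was the lowest for Col1a1. Col1a2 levels were 52.5, 26.0, 12.3 and 36.7 CPM in ret/wt thalamus and 66.1, 18.9, 6.64 and 14.7 CPM in ret/ret thalamus, where replicate 1 was again the highest. Per length of transcript, Col1a1 was below Col1a2 in all 16 libraries, with a ratio of 0.164 to 0.960 (median 0.425). In ret/ret thalamus replicate 1 the 12 fibroblast and leptomeninges markers summed to 603 CPM, against 131 to 513 CPM over the other thalamus libraries. The endothelial (528 CPM), microglia (449 CPM) and choroid plexus (97.2 CPM) sums of this library were also the highest in thalamus. Its pericyte (244 CPM), smooth muscle (49.1 CPM) and border macrophage (23.6 CPM) sums were the highest in ret/ret thalamus. Its cerebellum and neuron sums were not. The part of these lists in the collagen level was not tested.

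Mgp encodes matrix Gla protein, a secreted inhibitor of calcification (ENSMUSG00000030218, chr6:136872435-136875823, minus strand). It was at 11.2, 12.5, 16.4 and 8.20 CPM in ret/wt cortex, 11.3, 22.6, 7.41 and 15.4 CPM in ret/ret cortex, 21.2, 8.60, 4.01 and 80.9 CPM in ret/wt thalamus and 32.1, 6.30, 7.18 and 41.2 CPM in ret/ret thalamus. The highest level came from a control library, ret/wt thalamus replicate 4. In it the fibroblast markers summed to 513 CPM, the 8 border macrophage markers to 29.6 CPM and the pericyte markers to 360 CPM. Its smooth muscle, endothelial and choroid plexus markers summed to 63.2, 289 and 93.9 CPM. Each of these sums was the highest in ret/wt thalamus for its list, and their part in the Mgp level was not tested. The choroid plexus sum did not go with Mgp in every library. It was 1169 CPM in ret/wt cortex replicate 4, which had the lowest Mgp of its group. In ret/ret thalamus replicate 4, with the highest Mgp of its group, it was 29.5 CPM, the lowest in thalamus. All 4 groups overlapped.

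Ibsp encodes bone sialoprotein, which binds hydroxyapatite in bone (ENSMUSG00000029306, chr5:104299171-104311469, plus strand). It was at or under the floor in 16 of 16 libraries, with 0 to 3 counts each. Over the 4 libraries of a group it summed to 9 counts in ret/wt cortex, 4 in ret/ret cortex, 3 in ret/wt thalamus and 5 in ret/ret thalamus. Expression above the floor was not detectable at this depth in the calcified tissue or elsewhere, and no fold is given.

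Runx2, the factor needed for osteoblast formation (ENSMUSG00000039153, chr17:44495987-44814797, minus strand), was higher in cortex than in thalamus. Its levels were 7.69, 7.31, 3.30 and 16.5 CPM in ret/wt cortex and 5.88, 4.84, 7.01 and 3.39 CPM in ret/ret cortex. In thalamus they were 0.86, 0.94, 2.03 and 0.39 CPM in ret/wt and 0.71, 4.11, 0.53 and 2.87 CPM in ret/ret. All ret/wt thalamus libraries were below all cortex libraries, while ret/ret thalamus replicate 2 lay above ret/ret cortex replicate 4.

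Ctsk encodes cathepsin K, the protease with which osteoclasts digest collagen (ENSMUSG00000028111, chr3:95499256-95509362, plus strand). It was present in every library at 1.14 to 4.91 CPM. Its levels were 3.77, 1.97, 2.73 and 1.14 CPM in ret/wt cortex and 1.38, 2.57, 2.45 and 1.50 CPM in ret/ret cortex. They were 3.11, 3.27, 2.75 and 4.91 CPM in ret/wt thalamus and 4.48, 2.10, 2.76 and 4.68 CPM in ret/ret thalamus. The thalamus groups had almost the same mean, 3.51 ± 0.96 CPM in ret/wt and 3.51 ± 1.27 CPM in ret/ret (SD, n = 4).

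Acp5 encodes tartrate-resistant acid phosphatase, the classic stain for osteoclasts (ENSMUSG00000001348, chr9:22126727-22135711, minus strand). It had 2 to 31 counts per library and was at or under the floor in 5 libraries, all of cortex. Its level was 0.088 to 0.27 CPM in ret/wt cortex and 0.13 to 0.44 CPM in ret/ret cortex. In thalamus it was 0.26, 0.67, 1.79 and 0.71 CPM in ret/wt and 1.15, 1.39, 0.24 and 0.25 CPM in ret/ret. The ret/ret thalamus libraries fell on both sides, with replicates 3 and 4 at cortex levels.

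Tnfrsf11a, the receptor RANK (ENSMUSG00000026321, chr1:105780718-105847981, plus strand), was at 7.22, 6.36, 4.88 and 3.20 CPM in ret/wt cortex and 5.59, 3.27, 6.90 and 6.12 CPM in ret/ret cortex. In thalamus it was at 2.85, 8.93, 7.83 and 2.65 CPM in ret/wt and 2.62, 15.2, 3.93 and 3.97 CPM in ret/ret. One library, ret/ret thalamus replicate 2, held the highest level. It belongs to one of the animals with Y-linked reads and also had the highest sum of thalamus neuron markers (3467 CPM). All groups overlapped.

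Tnfrsf11b, the decoy receptor osteoprotegerin (ENSMUSG00000063727, chr15:54250619-54278484, minus strand), was at 3.45, 2.63, 4.92 and 0.76 CPM in ret/wt cortex, 1.82, 3.79, 1.93 and 0.85 CPM in ret/ret cortex, 4.23, 2.33, 1.26 and 2.97 CPM in ret/wt thalamus and 3.15, 1.52, 1.79 and 2.36 CPM in ret/ret thalamus. The ratio of Tnfrsf11a to Tnfrsf11b per length of transcript ranged from 0.378 to 5.59 (median 1.29 over 16 libraries). Its median was 1.32 in ret/wt thalamus and 1.08 in ret/ret thalamus, with ranges that overlapped. The ligand of both receptors, Tnfsf11, named here for its role, had 0 to 3 counts in all 16 libraries.

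**Figure D1:**
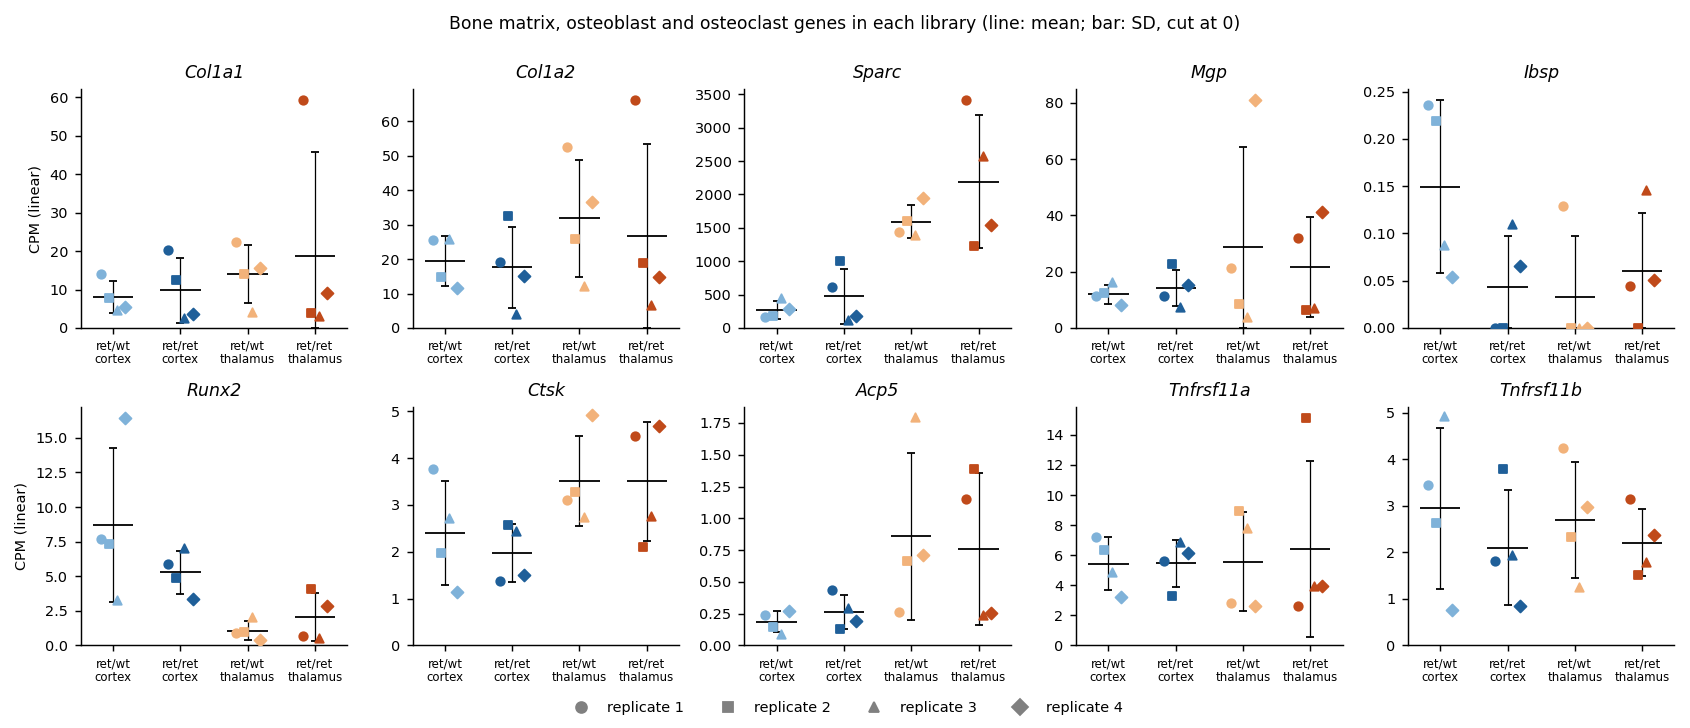
Level of each of the 10 genes in each library, in CPM, by group (points are libraries, horizontal lines group means, vertical bars the SD). Sparc in all 8 thalamus libraries lies above all 8 cortex libraries, while Ibsp does not leave the floor of 3 counts.

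The question of the first comparison is whether calcified ret/ret thalamus carries more RNA of bone genes than the matching ret/wt tissue. None of the 9 genes that could be tested differed beyond the replicate spread. Of these 9 (all but Ibsp, which had too few counts), 0 were called at an adjusted p under 0.05 and 0 at an unadjusted p under 0.05 by the quasi-likelihood test of edgeR (Benjamini-Hochberg adjustment over all genes). Among all genes the call rates were 0% of 14767 genes after adjustment and 3.93% before it, so the absence of calls is not particular to bone genes. DESeq2 also called 0 of the 9 after adjustment. The largest difference was that of Runx2, at a log2 fold change of 0.99 ± 0.73 (SE) in ret/ret over ret/wt thalamus, with an unadjusted p of 0.202 and an adjusted p of 1.0 in edgeR. Sparc differed by 0.49 ± 0.31, Col1a1 by 0.48 ± 0.87 and Tnfrsf11a by 0.24 ± 0.61 on the log2 scale. Ctsk differed by 0.03 ± 0.38, Acp5 by -0.13 ± 0.75, Col1a2 by -0.21 ± 0.65, Tnfrsf11b by -0.25 ± 0.44 and Mgp by -0.39 ± 0.90.

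The width of these intervals differed between genes. The 95% interval for Ctsk ended at 1.82-fold higher and that for Sparc at 2.27-fold higher, whereas Runx2 could have been up to 6.08-fold and Col1a1 up to 5.36-fold higher in ret/ret thalamus without leaving its interval. With single libraries left out, the log2 difference ranged from 0.41 to 1.52 for Runx2 and from 0.18 to 0.69 for Sparc. The direction for Col1a1, Mgp and Tnfrsf11a turned with 1 library. Without ret/ret thalamus replicate 1 the log2 difference of Col1a1 was -1.35, without ret/wt thalamus replicate 4 that of Mgp was 1.01, and without ret/ret thalamus replicate 2 that of Tnfrsf11a was -0.63. In whole tissue, fewer cells of a type and less RNA per cell cannot be told apart. For Ibsp, which had too few counts for the model, an exact permutation test of its CPM between the thalamus groups gave a two-sided p of 0.543 (n = 4 and 4).

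In cortex, which the labels describe as free of calcification, the same contrast set the genotypes against each other without picked calcifications. Its libraries also differed in their cerebellum and choroid plexus marker sums, so it does not hold genotype alone. Of 8 genes tested (Ibsp and Acp5 had too few counts), 0 were called after adjustment and 0 at an unadjusted p under 0.05 in edgeR, against 0.0210% and 3.77% of 14288 genes, and DESeq2 called 0. The largest log2 fold change was that of Sparc (0.86 ± 0.63, unadjusted p = 0.202 in edgeR). Its estimate shrank to 0.20 without ret/ret cortex replicate 2, the library with cerebellum markers. Runx2 had the smallest unadjusted p (0.155 in edgeR) at a log2 fold change of -0.70 ± 0.46, which ranged from -0.99 to -0.18 with single libraries left out. Tnfrsf11b differed by -0.46 ± 0.59 and Col1a1 by 0.31 ± 0.63. For Mgp (0.25 ± 0.35), Ctsk (-0.25 ± 0.43), Col1a2 (-0.12 ± 0.52) and Tnfrsf11a (0.03 ± 0.34) the differences were smaller than their standard errors.

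**Figure D2:**
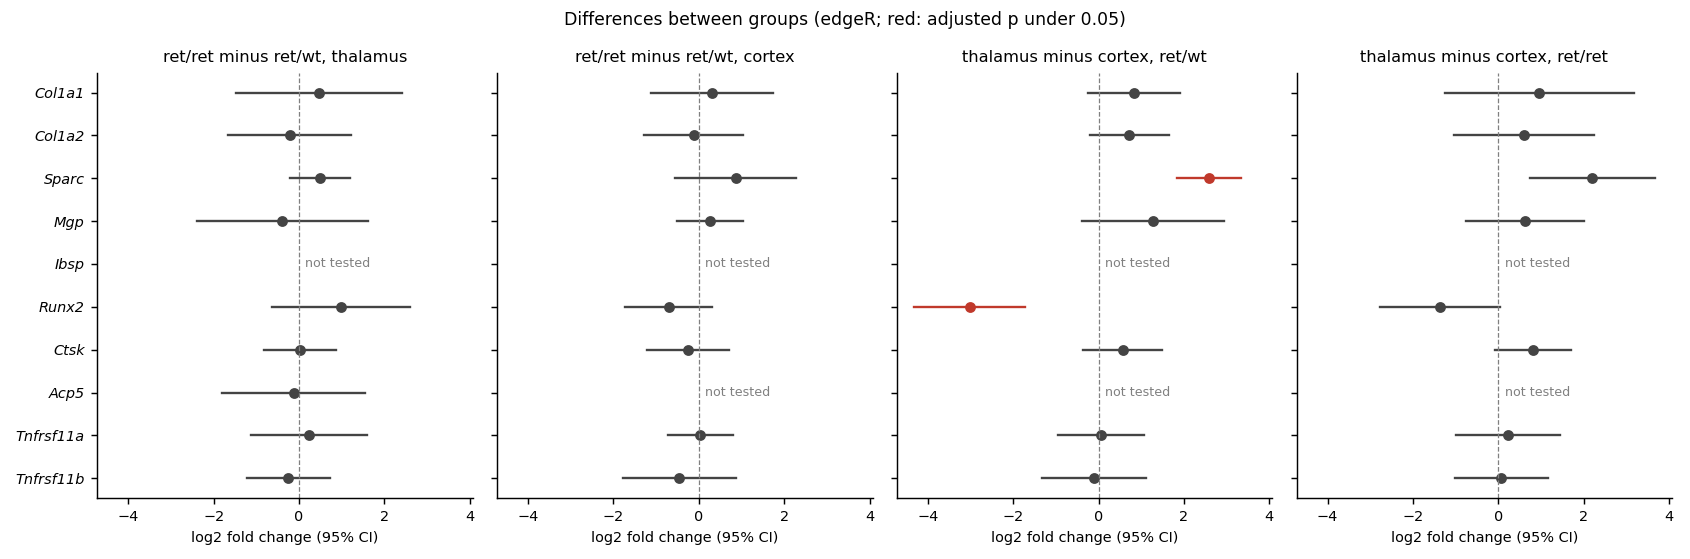
Log2 fold change of each gene in edgeR with its 95% interval, by comparison (positive values: higher in ret/ret, or higher in thalamus). Intervals of all genes include 0 in both genotype comparisons, and Sparc and Runx2 lie away from 0 between the regions of ret/wt animals.

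The regions differed in 2 of the 10 genes, in opposite directions. In ret/wt animals Sparc was 6.03-fold higher in thalamus than in cortex, a log2 fold change of 2.59 ± 0.34 with an adjusted p of 0.00106 in edgeR. Runx2 was 8.13-fold lower in thalamus, a log2 fold change of -3.02 ± 0.59 with an adjusted p of 0.00793. These were 2 of 8 genes tested, and 12.6% of all 14442 genes tested were called in this comparison. The groups did not overlap for either gene, as was so for 20.0% of all genes. In each of the 4 ret/wt animals Sparc was higher and Runx2 lower in thalamus than in the cortex of the same animal. With both animals with Y-linked reads left out, the log2 fold changes were 3.02 for Sparc and -3.81 for Runx2, and both were still called in edgeR (adjusted p = 0.00157 and 0.00398). Without ret/wt cortex replicate 4, the highest Runx2 library and the one with choroid plexus markers, the Runx2 change was -2.50 with an adjusted p of 0.0194 in edgeR.

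In ret/ret animals the same 2 genes led, and neither was called. The ret/ret thalamus tissue was picked calcifications, so region, calcification and manner of dissection cannot be told apart in this comparison. Sparc was 4.60-fold higher in thalamus, a log2 fold change of 2.20 ± 0.65 with an unadjusted p of 0.00772 and an adjusted p of 0.0644 in edgeR. Of the 8 genes tested 0 were called after adjustment, against 9.50% of 14715 genes, and 1 had an unadjusted p under 0.05, against 26.7%. The Sparc ranges did not overlap, as was so for 17.5% of all genes, and Sparc was higher in thalamus in 4 of 4 ret/ret animals. Without ret/ret cortex replicate 2, the library with cerebellum markers, its change was 2.88 with an adjusted p of 0.0210 in edgeR. Without both animals with Y-linked reads it was 3.07 with an adjusted p of 0.0160. DESeq2 called Sparc on all 8 libraries (adjusted p = 0.00178), as did edgeR when the spread was shared over all 16 libraries (adjusted p = 0.0175). With the animal as a block it was not called in edgeR (adjusted p = 0.0732), and it stayed uncalled in 7 of 8 fits with a single library left out (adjusted p up to 0.158). Runx2 had a log2 fold change of -1.36 ± 0.63 with an adjusted p of 0.201 and was lower in thalamus in 4 of 4 animals, and Ctsk had one of 0.82 ± 0.40 with an adjusted p of 0.219 in edgeR.

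The other genes of the main fits did not differ between regions beyond their spread in either genotype. Between the regions of ret/wt animals Mgp differed by a log2 fold change of 1.28 ± 0.75, Col1a1 by 0.83 ± 0.49, Col1a2 by 0.72 ± 0.42, Ctsk by 0.57 ± 0.42, Tnfrsf11a by 0.05 ± 0.46 and Tnfrsf11b by -0.11 ± 0.55, all uncalled in edgeR. The Mgp estimate turned to -0.10 without ret/wt thalamus replicate 4. In ret/ret animals Col1a1 differed by 0.96 ± 0.99, Mgp by 0.62 ± 0.62, Col1a2 by 0.60 ± 0.73, Tnfrsf11a by 0.23 ± 0.54 and Tnfrsf11b by 0.07 ± 0.48, and Col1a1 turned to -0.85 without ret/ret thalamus replicate 1. Acp5, too low in cortex for the main fit between regions in either genotype, was higher in thalamus in 4 of 4 ret/wt and 3 of 4 ret/ret animals. Two-sided exact permutation tests of its CPM between regions gave p = 0.0571 in ret/wt and p = 0.229 in ret/ret animals (n = 4 and 4), the former falling to 0.0286 when CPM was scaled by library size alone. With single libraries left out, edgeR called 2 to 3 of the 10 genes between regions of ret/wt animals. Among genes of the main fit only Sparc and Runx2 were called, so the further gene was Acp5. Ibsp, with 0 to 3 counts per library, stayed under the count filter. Over the 40 exact tests of the 10 genes, 3 reached 0.0286, the smallest p that 4 against 4 libraries allow, before any adjustment: Sparc in both genotypes and Runx2 in ret/wt, each between regions. These regroupings do not keep the cortex and thalamus of an animal together. Sign changes within 4 animals number 16, so a paired exact permutation test could not go below a two-sided p of 0.125.

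**Figure D3:**
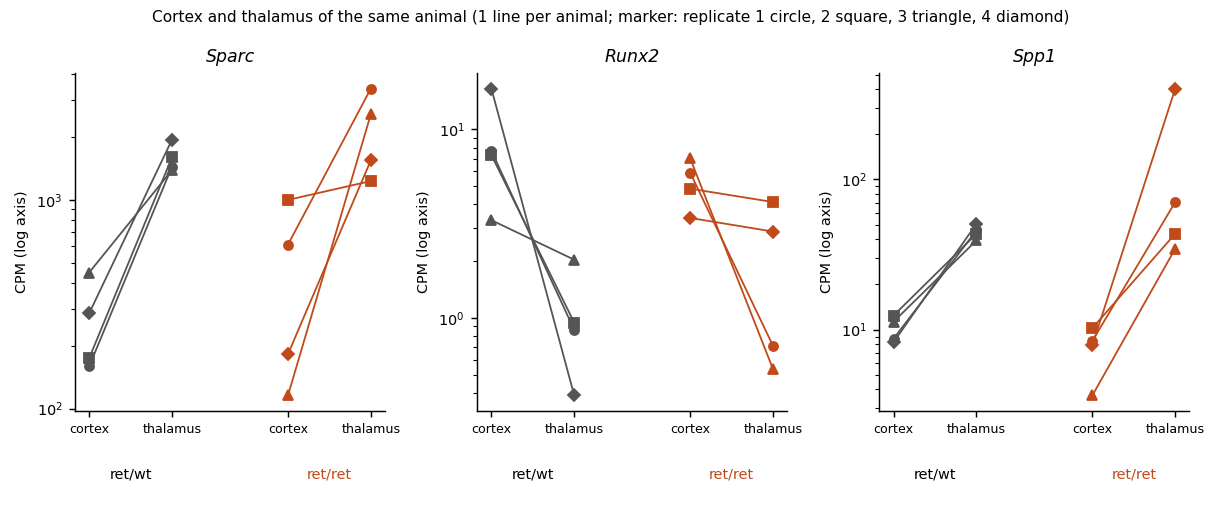
Level of Sparc, Runx2 and Spp1 in CPM on a log axis in the cortex and thalamus of each animal, 1 line per animal. Sparc and Spp1 are higher and Runx2 is lower in thalamus in all 8 animals.

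Whether the regional difference changed with genotype was tested as the interaction on all 16 libraries. Genotype and the picking of calcifications in ret/ret thalamus cannot be told apart in it. None of 9 genes was called in edgeR, and 0% of 15286 genes were called in all. Runx2 had the largest estimate, 1.67 ± 0.89 (log2; unadjusted p = 0.0781), with an adjusted p of 1.0 in edgeR, and none of the 9 had an unadjusted p under 0.05, against 1.60% of all genes. The call of Runx2 in ret/wt and its lack in ret/ret animals is therefore not a shown difference between genotypes. For Sparc the interaction was -0.38 ± 0.76, and those of the other genes lay between -0.65 ± 1.03 (Acp5) and 0.27 ± 0.56 (Ctsk). DESeq2 called 0 of them.

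The wider pathways of bone formation and resorption were described with 70 further genes, of which 66 were analysed: 22 matrix and mineral proteins, 19 osteoblast and chondrocyte regulators and 25 genes of osteoclast formation and function. Between thalamus groups, 0 of the 55 tested passed the adjusted threshold in edgeR, and 8 had an unadjusted p under 0.05, with 5 higher and 3 lower in ret/ret, against 3.93% of all genes. The median log2 fold change was -0.04 for matrix proteins, 0.19 for osteoblast regulators and 0.16 for osteoclast genes, beside -0.02 over all genes tested. The smallest unadjusted p belonged to Trem2, a lipid receptor of microglia and osteoclasts. It was at 7.17, 6.05, 7.12 and 11 CPM in ret/wt thalamus and 26.0, 12.9, 13.9 and 11.4 CPM in ret/ret thalamus, without overlap. Its log2 fold change was 1.07 ± 0.33 (edgeR, unadjusted p = 0.00862, adjusted p = 1.0). Csf1r, the receptor of macrophage colony-stimulating factor, had 0.60 ± 0.19 and Tyrobp, the adaptor through which Trem2 signals, had 1.10 ± 0.39, and neither passed the adjusted threshold. Without ret/ret thalamus replicate 1, the highest library, the Trem2 difference was 0.72.

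Of the 8 genes with an unadjusted p under 0.05, 5 were on the osteoclast list, 4 of them with a higher and 1 with a lower level in ret/ret thalamus. The other 3 were on the matrix list, 1 with a higher level (Spp1) and 2 with a lower one (Dmp1 and Alpl). The 4 higher osteoclast genes were Trem2, Csf1r, Tyrobp and Tnfsf10 (TRAIL, another ligand of osteoprotegerin). Tnfsf10 was at 2.55, 3.77, 2.33 and 3.81 CPM in ret/wt thalamus and 9.44, 5.10, 4.27 and 4.88 CPM in ret/ret thalamus, without overlap. Its log2 fold change was 0.96 ± 0.36 (edgeR, unadjusted p = 0.0237, not called after adjustment). Ocstamp, which takes part in osteoclast fusion, was at 1.60, 1.61, 1.44 and 2.39 CPM in ret/wt thalamus and 0.80, 0.36, 0.58 and 0.86 CPM in ret/ret thalamus, without overlap. Its log2 fold change was -1.40 ± 0.44 (edgeR, unadjusted p = 0.00988, adjusted p = 1.0). Dmp1, a matrix protein of osteocytes, had a log2 fold change of -1.26 ± 0.45 with an unadjusted p of 0.0174 and an adjusted p of 1.0 in edgeR, and its lowest ret/wt library (3.29 CPM) lay below its highest ret/ret library (3.97 CPM). Alpl, the alkaline phosphatase of mineralising osteoblasts, which vessels also express, had -0.82 ± 0.33 (edgeR, unadjusted p = 0.0316, adjusted p = 1.0), also with overlap. Groups without overlap made up 2.72% of all genes in this comparison. Of the osteocalcin genes, named for their role as osteoblast products, Bglap had 0 to 4 counts per library and was above the floor of 3 counts in 1 library, of ret/ret thalamus (4 counts, 0.194 CPM). Bglap2 had 0 to 2 counts per library.

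Beside these counts, the markers of microglia also moved with the ret/ret thalamus. Their 10 genes summed to 360 to 449 CPM in ret/ret thalamus and to 249 to 282 CPM in ret/wt thalamus, without overlap, and none was at 0 in any thalamus library. All 10 had a positive log2 fold change (median 0.70), and 8 had an unadjusted p under 0.05 in edgeR, against 3.93% of all genes. Csf1r, Trem2 and Tyrobp are expressed by microglia as well as by osteoclasts, and the part of microglia in their levels was not tested. Border macrophage markers summed to 6.74 to 23.6 CPM in ret/ret and 10.2 to 29.6 CPM in ret/wt thalamus. The fibroblast and leptomeninges list ranged from 150 to 603 CPM and from 131 to 513 CPM in the same groups, and the pericyte list from 69.8 to 244 CPM and from 118 to 360 CPM, all with overlap. Of 12 pericyte markers tested, 1 had a positive log2 fold change (median -0.75), and 3 had an unadjusted p under 0.05 in edgeR. Endothelial markers summed to 230 to 528 CPM and 248 to 289 CPM, and smooth muscle markers to 16.1 to 49.1 CPM and 24.9 to 63.2 CPM, also with overlap. All 10 endothelial markers had a positive log2 fold change (median 0.49), and 1 had an unadjusted p under 0.05 in edgeR. The part of these lists in the levels of the bone genes was not tested.

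**Figure D4:**
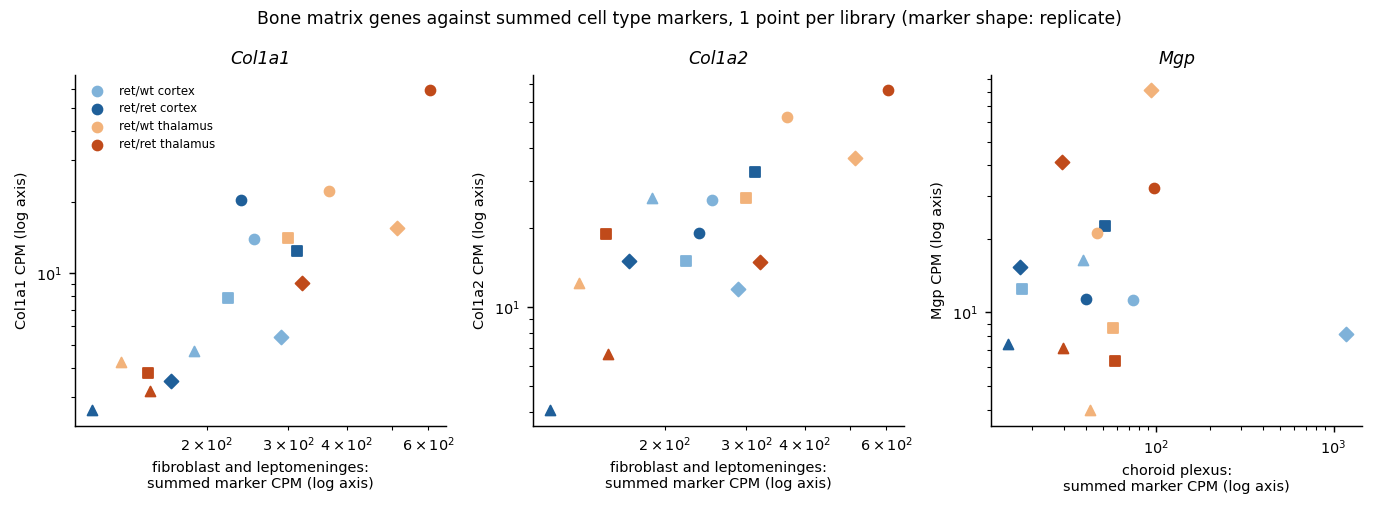
Levels of Col1a1 and Col1a2 against the summed CPM of fibroblast and leptomeninges markers, and of Mgp against that of choroid plexus markers, on log axes, with 1 point per library coloured by group and shaped by replicate. Ret/ret thalamus replicate 1 combines the highest Col1a1 level (59.2 CPM) with the highest sum of fibroblast and leptomeninges markers (603 CPM). Its endothelial, microglia and choroid plexus sums, not all drawn here, were also the highest in thalamus. The library with the highest choroid plexus sum (1169 CPM, ret/wt cortex replicate 4) had 8.20 CPM of Mgp.

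Spp1 encodes osteopontin, a mineral-binding matrix protein made by osteoblasts, osteoclasts and activated macrophages. It was at 8.71, 12.4, 11.3 and 8.25 CPM in ret/wt cortex and 8.42, 10.2, 3.65 and 7.88 CPM in ret/ret cortex. In thalamus it was at 45.8, 43.4, 39.3 and 50.7 CPM in ret/wt and 70.7, 43.5, 34.6 and 403 CPM in ret/ret. The thalamus groups overlapped, and ret/ret replicate 4 stood far above the other libraries. The genotype difference in thalamus was 1.65 ± 0.70 on the log2 scale (edgeR, unadjusted p = 0.0390, adjusted p = 1.0), and 0.18 without that library. Thalamus was above cortex in 8 of 8 animals. The regional log2 fold change was 2.15 ± 0.21 in ret/wt animals (adjusted p = 0.000264) and 4.20 ± 0.84 in ret/ret animals (adjusted p = 0.0165) in edgeR. The latter was not called without ret/ret cortex replicate 3 or 4 (adjusted p = 0.0546 and 0.0511), and it was 2.72 without ret/ret thalamus replicate 4, where it was still called. The interaction was 2.06 ± 0.84, with an unadjusted p of 0.0254 and an adjusted p of 1.0 in edgeR, and 0.58 without that thalamus library. Of 59 pathway genes tested for the interaction, 0 were called in edgeR. An unadjusted p under 0.05 was found for 2 (Spp1 and Cbfb), against 1.60% of all genes. With single libraries left out, interaction estimates ranged from 0.72 to 1.40 for Cbfb and from 0.60 to 1.14 for Trem2. They ranged from -1.23 to -0.72 for Dmp1 and from -2.92 to -1.42 for Omd. Between regions of ret/ret animals Trem2 ranged from 0.58 to 1.06 in such fits and was not called.

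In cortex, 0 of 55 pathway genes tested passed the adjusted threshold between genotypes in edgeR, and 6 had an unadjusted p under 0.05, against 3.77% of all genes. Tnfsf10, also higher in ret/ret thalamus, had a log2 fold change of 1.64 ± 0.42 and Bgn (biglycan, a collagen-binding proteoglycan) of 1.14 ± 0.30. Serpinh1, a collagen chaperone, had 0.92 ± 0.36 (0.49 without ret/ret cortex replicate 2), Bmp4, a bone morphogenetic protein, had 0.86 ± 0.36, and the matrix protease Mmp14 had -0.71 ± 0.24. Trem2 (0.12 ± 0.32) and Spp1 (-0.41 ± 0.32) did not pass either threshold there. Beside these values, 5 of 10 endothelial markers tested had an unadjusted p under 0.05 in edgeR between cortex groups. Of these, 4 were higher and 1 was lower in ret/ret, with a list median log2 fold change of 0.63. Among 10 pericyte markers tested 5 had such a p, all lower in ret/ret (list median -0.70). After adjustment 1 pericyte marker was called, also lower, among 3 genes called in all. The 7 cerebellum markers tested had a median of 1.11, and 0 had an unadjusted p under 0.05 in edgeR. The 5 choroid plexus markers tested had a median of -1.79, 2 of them with such a p. The 9 thalamus neuron markers tested had a median of 0.76, 3 of them with such a p. The part of these lists in the differences was not tested.

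**Figure D5:**
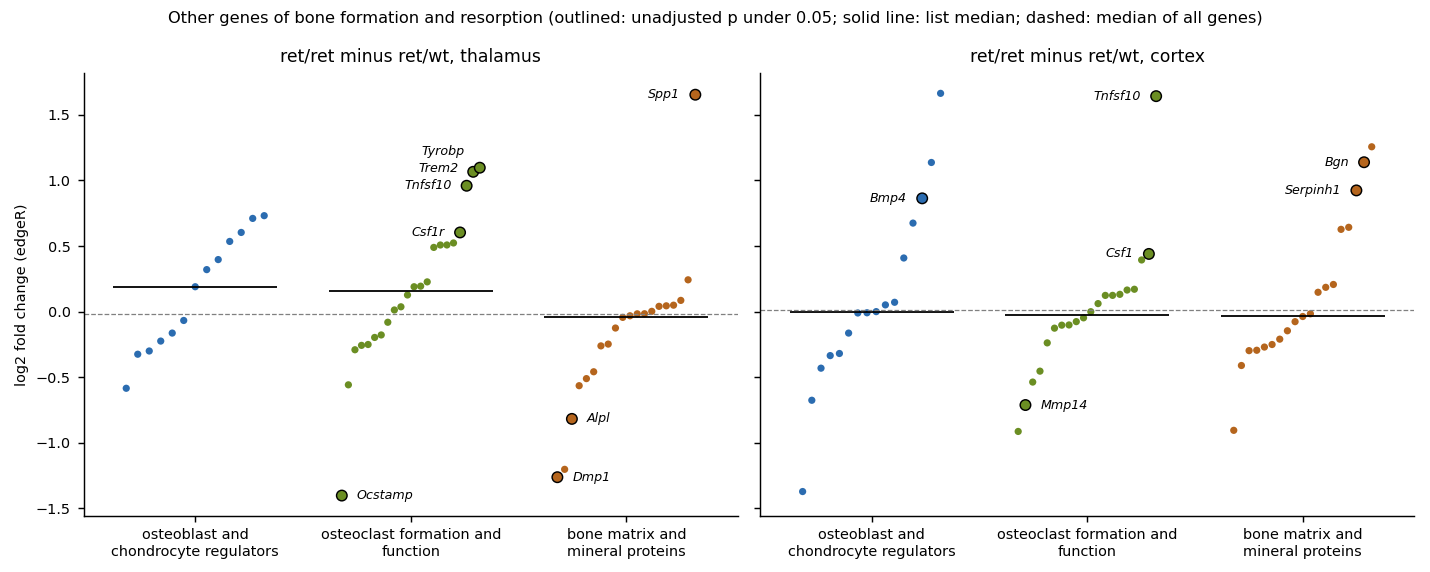
Log2 fold change between genotypes of the other genes of bone formation and resorption in edgeR, by list and region, with 1 point per gene (outlined points have an unadjusted p under 0.05, solid lines are list medians, the dashed line is the median of all genes). The thalamus medians of -0.04, 0.19 and 0.16 lie near the median of all genes, and 0 genes passed after adjustment.

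Between regions of ret/wt animals, 5 pathway genes rose and 3 fell in thalamus among 56 tested (edgeR), against 12.6% of all genes called. In ret/ret animals 3 rose and 3 fell among 57 tested, against 9.50% of all genes. Besides Spp1, Bmp2 (log2 fold change 1.40 ± 0.39 in ret/wt and 1.22 ± 0.31 in ret/ret) and Car2, the carbonic anhydrase with which osteoclasts make acid (0.85 ± 0.19 and 0.85 ± 0.16), rose in both genotypes. Acan, the cartilage proteoglycan aggrecan (1.56 ± 0.39), and Pth1r, the receptor of parathyroid hormone (1.41 ± 0.28), rose in ret/wt animals. Dlx5 (-3.86 ± 0.62 and -3.10 ± 0.73) and Dlx6 (-2.76 ± 0.74 and -3.61 ± 0.53) fell in both. Dlx5 and Dlx6 encode transcription factors of bone formation that neurons also express. With the animal as a block, Bmp2 and Dlx5 in ret/ret animals were no longer called in edgeR (adjusted p = 0.0704 and 0.0587). With no filter on low counts, Bmp2 was called in neither genotype (adjusted p = 0.0501 in ret/wt and 0.0547 in ret/ret animals). Leaving out single libraries ended the call of Bmp2 in 7 of 8 cases in each genotype, of Dlx6 in ret/wt animals in 7 of 8 and of Dlx5 in ret/ret animals in 5 of 8. It also ended the call of Acan (without ret/wt thalamus replicate 1 or cortex replicate 2) and of Car2 in ret/wt animals (without cortex replicate 1). Without both animals with Y-linked reads, Acan in ret/wt and Bmp2 in ret/ret animals were not called in edgeR (adjusted p = 0.0534 and 0.0590).

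For 4 of the genes, the 5 most similar profiles were taken among 12772 genes by Pearson's r of log2 CPM over the 16 libraries, which come from 8 animals and 2 regions, so these are descriptions with no test. Col1a1 was most like Col3a1 (r = 0.917), Aebp1, Lamc3, Slc22a8 and Slc6a13 (r = 0.867), and Col3a1 and Slc6a13 are on the fibroblast and leptomeninges list. Mgp was most like Gpr182 (r = 0.915), Nupr1, Ifitm2, Fcgrt and Ptgds (r = 0.866). Sparc was most like Lrig1 (r = 0.969), Itpkb, Ece2, Agt and Tppp3 (r = 0.956), where the contrast of regions enters every value. Within the 8 thalamus libraries the r of these 5 genes ranged from 0.425 (Agt) to 0.906 (Lrig1), and within the 8 cortex libraries from 0.904 to 0.962. Ctsk was most like Tfeb (r = 0.868), a regulator of lysosomal genes, then Hgsnat, Tmem192, Aif1l and Oard1 (r = 0.814), and within thalamus these ranged from 0.448 (Hgsnat) to 0.851 (Aif1l).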

How the data were processed

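The authors deposited expected counts, estimated reads per Ensembl gene, made from 16 libraries of polyA-selected RNA with stranded kits, per the labels. Their values are not whole numbers and carry no scaling. The submitters' processing notes name kallisto 0.44.0 and GRCm38.p6, without their role. Counts were rounded to whole numbers before fitting. Symbols, coordinates and transcript lengths were looked up in GENCODE M21 (GRCm38) by identifier, which matched 21581 of 21804 genes (99.0%), and levels per length used the longest principal transcript.

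The 8 libraries of each comparison, and all 16 for the interaction, were fitted with edgeR 4.0.16 in R 4.3.3: filterByExpr (minimum count 10, minimum total 15), trimmed-mean (TMM) factors and the quasi-likelihood test, with Benjamini-Hochberg adjustment over all genes tested and a threshold of 0.05. Standard errors came from the F statistic. The fits were checked on simulated data with 200 changed genes. DESeq2 1.42.0 and limma 3.58.1 were also loaded, the former as an alternative test. Levels in CPM were scaled over all 16 libraries, and exact permutation tests used their 70 regroupings of 4 against 4. Tables, exact tests and plots used scipy 1.17.1, numpy 2.4.6, pandas 2.3.3 and matplotlib 3.10.9 under Python 3.11.15.

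Groups came from the labels, which give an animal identifier to each library. Replicates of a group are therefore separate animals, and cortex and thalamus libraries with the same number within a genotype come from the same animal, while equal numbers across genotypes are different animals. Residuals of libraries of the same animal correlated at a mean of 0.0608 (ret/wt) and 0.0883 (ret/ret), against -0.0205 and -0.0291 for different animals. The animal entered as a block in an alternative fit.

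The 10 genes, the pathway and marker lists and the tests were chosen with earlier results of these data known. Of 173 genes written in the lists, 6 (Ahsg, Atf4, Mepe, Sp7, Cldn5 and Myh11) were not analysed here. Beside the 10 genes, Spp1 and Trem2 were named in every comparison, with the pathway genes that passed the adjusted threshold, at most the 5 highest and 5 lowest (1 such gene is not reported here), or, where none passed, the 5 with the smallest unadjusted p. Tnfsf11, Bglap and Bglap2 were named for their role, and Alpl beside Dmp1 and Tnfsf10 in thalamus, after their values had been seen. The alternatives were other scalings and filters, DESeq2, a fit over all libraries, the animal block, and leaving out single libraries or both animals with Y-linked reads.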

Additional observations from a re-analysis of the deposited data

Results flagged for a closer look

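In 44 groups of 4 libraries, a library was set apart from the other 3 of its group where its gap to the nearest of them was larger, relative to the group's range, than Dixon's 95% limit, which chance passes in about 1 group in 20. This held in 4 cases, all in ret/ret thalamus. Col1a1 was at 59.2 CPM in replicate 1 and at 3.20 to 9.16 CPM in the other 3 libraries. Tnfrsf11a was at 15.2 CPM in replicate 2, against 2.62 to 3.97 CPM. Spp1 was at 403 CPM in replicate 4, against 34.6 to 70.7 CPM. Trem2 was at 26.0 CPM in replicate 1, against 11.4 to 13.9 CPM.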

How the results depend on the processing

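Calls of Sparc and Runx2 between the regions of ret/wt animals were kept under every alternative run. Between genotypes in thalamus, edgeR called 0 genes, and the number was 37 with DESeq2 and 3 with one fit over 16 libraries. In cortex it was 3 in edgeR, 38 with DESeq2, 7 with one fit and 1 without the animals with Y-linked reads, and 0 to 2 with single libraries left out. Between regions of ret/ret animals it was 1398 in edgeR, 2591 with DESeq2, 2564 without the animals with Y-linked reads and 627 to 2007 with single libraries left out, and 1 of the 10 genes (Sparc) was then called with DESeq2, one fit and without those animals (0 to 1 with single libraries left out). Between regions of ret/wt animals it was 1813 in edgeR and 1178 to 1797 with single libraries left out (2 to 3 of the 10 genes). The interaction gave 0 genes in edgeR and 4 with DESeq2. With the animal as a replicate block, 1177 genes were called between regions in ret/ret, 1487 in ret/wt and 0 for the interaction, and 0, 2 and 0 of the 10 genes. Beside Bmp2 and Dlx5 in ret/ret animals, the block changed no other call of a named gene. Scaling by library size alone moved the median log2 fold change of all genes between regions of ret/wt animals from 0.03 to 0.13, and the calls from 785 higher and 1028 lower to 977 and 844.

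Signs turned only for uncalled genes. Without the animals with Y-linked reads, Acp5 was 0.077 and Tnfrsf11a -0.42 between thalamus groups, Col1a1 -0.025 between cortex groups, Tnfrsf11a -0.81 (ret/ret) and -0.21 (ret/wt) and Tnfrsf11b 0.50 (ret/wt) between regions, and the interactions of Col1a2, Sparc and Tnfrsf11a were 0.085, 0.052 and -0.59. With the block, Tnfrsf11a was -0.15 (ret/ret) and -0.079 (ret/wt), Tnfrsf11b 0.020 and Trem2 0.016 (ret/wt), and the interactions of Col1a1 and Tnfrsf11a were -0.31 and -0.063. By library size alone Tnfrsf11b was 0.016 and Trem2 0.086 (ret/wt), Trem2 was 0.0037 with at least 1 CPM in 4 libraries, and Ctsk in thalamus was -0.0010 with one fit. The cause was not tested.

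With single libraries left out, estimates ranged, between thalamus groups, for Acp5 from -0.58 to 0.52, Col1a1 -1.35 to 0.82, Col1a2 -1.22 to 0.11, Ctsk -0.14 to 0.26, Mgp -0.90 to 1.01, Tnfrsf11a -0.63 to 0.55 and Tnfrsf11b -0.49 to 0.029. Between cortex groups they ranged for Col1a1 from -0.33 to 0.72, Col1a2 -0.60 to 0.21, Ctsk -0.48 to 0.046, Mgp -0.074 to 0.47, Tnfrsf11a -0.15 to 0.22 and Trem2 -0.060 to 0.33. Between regions of ret/ret animals they ranged for Col1a1 from -0.85 to 1.63, Col1a2 -0.39 to 1.11, Tnfrsf11a -0.61 to 0.49 and Tnfrsf11b -0.19 to 0.54, and of ret/wt animals for Mgp from -0.10 to 1.64, Tnfrsf11a -0.27 to 0.28, Tnfrsf11b -0.42 to 0.26 and Trem2 -0.23 to 0.21. For the interaction they ranged for Acp5 from -1.09 to 0.00011, Col1a1 -1.67 to 0.77, Col1a2 -1.11 to 0.36, Ctsk -0.027 to 0.52, Mgp -1.14 to 0.71, Sparc -0.75 to 0.27, Tnfrsf11a -0.67 to 0.52 and Tnfrsf11b -0.19 to 0.65. Depth limits Ibsp, Acp5 in cortex, Tnfsf11, Bglap and Bglap2.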
